A study of Gallus gallus with 40 samples.

Results

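TAT, HGD, GPT2, PCK1 and FBP1 are 5 genes of amino acid breakdown and of glucose synthesis in the liver. They were taken as all probes on the array whose annotated gene symbol is 1 of these 5 names. The rule reads no measured value, but the 5 genes were picked with earlier results of these data known, so their calls at 7 weeks are not those of a set chosen blind. The array held 7 such spots among 19200, 2 each for TAT and HGD and 1 each for GPT2, PCK1 and FBP1, and they gave 7 of 18547 probes. Of these 7 probes, 6 had enough values to be tested, out of 6432 tested in all. The untested probe is the second one for TAT.

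Liver RNA came from juvenile broiler chickens of a pair of lines bred in opposite directions for body weight at 8 and 32 weeks, 1 for high growth (HG) and 1 for low growth (LG). Each of 40 two-colour cDNA arrays compared HG with LG liver of birds of the same age, 1 liver labelled with Alexa Fluor 555 and the other with Alexa Fluor 647. The ages of 1 and 3 weeks had 12 arrays each, and the ages of 5, 7, 9 and 11 weeks had 4 each, with the dyes balanced between the lines at every age. All birds had a standard broiler growth regime, and the labels give no sex of the birds and no feeding state.

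Tyrosine aminotransferase (TAT) starts the breakdown of tyrosine and, in mammals, is a classic liver target of glucocorticoids and glucagon. Homogentisate dioxygenase (HGD) opens the aromatic ring further down the same route, which ends in fumarate and acetoacetate. GPT2 is a mitochondrial alanine aminotransferase, which exchanges the amino group of alanine with glutamate and leaves pyruvate, an entry point to glucose synthesis. Phosphoenolpyruvate carboxykinase (PCK1) and fructose-1,6-bisphosphatase (FBP1) catalyse a pair of steps of gluconeogenesis that glycolysis cannot run in reverse. In birds, which excrete nitrogen mainly as uric acid, amino acid nitrogen and carbon pass through the liver as in mammals, and chicken liver relies strongly on the mitochondrial form of the carboxykinase, encoded by PCK2.

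Every value below is a log2 ratio of HG over LG, with the deposited dye ratio turned by the dye that each line carried. The dye in the numerator is not stated. The series text calls Alexa Fluor 647 red and Alexa Fluor 555 green, so red over green is the likely reading, and on it a positive value means more transcript in HG. On the other reading every sign turns, the lines change places and a rank from the top becomes a rank from the bottom, while sizes, errors and p-values stay the same. Whether the ratios were turned before deposit is not stated either, and they were taken as not turned. Across ages, the lowest correlation between arrays of the same dye orientation was -0.308 over all probes, so the direction is not settled by the data. Within an age it was no lower than -0.07, but arrays of the same orientation also share the dye effect. For turned values with the dye effect taken off, each array was set against the mean of the others of its age. That r was -0.07, -0.06, 0.17 and 0.13 at 7 weeks (replicates 1 to 4) and 0.04, -0.04, -0.07 and 0.12 at 11 weeks. It was lowest at -0.567 (5 weeks, replicate 4) and above 0 for 23 of the 38 arrays in the fit.

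Each array gave ratios for 7291 to 13434 spots. Replicates 3 and 4 at 3 weeks held nearly the same ratios (99.62% of 9493 spots equal within 1%) under opposite dye labels, so both were left out and 38 arrays entered the fit. At 1 and 3 weeks some birds were used on more than 1 array, so p-values there measure the spread between arrays. Those arrays also enter the spread pooled over all ages, on which the p-values at 5 to 11 weeks rest. With replicates 1 to 4 alone at 1 and 3 weeks, 0 members passed at 7 weeks and 0 at 11 weeks. Of all 6432 probes, 53 and 3 then passed at these ages. The spread between arrays of an age was widest at 7 weeks, with a median SD of 0.382, against 0.356 at 5 weeks and 0.145 to 0.225 at the other ages. The fit used 1 spread for all ages, a median of 0.245, which is smaller than the spread at 7 weeks. Differences in whole liver RNA cannot tell fewer cells of a type from less RNA per cell.

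At 7 weeks TAT and HGD, a pair of enzymes of tyrosine breakdown, and FBP1 of gluconeogenesis were lower in HG than in LG on the likely reading, at a 1.55- to 1.81-fold difference. PCK1 and GPT2 did not pass. Of the 6 member probes, 4 were called negative, where 1.6% of all probes were called negative and 2.91% were called in either direction (limma, Benjamini-Hochberg adjusted p under 0.05).

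TAT, the first enzyme of the route, measured 0.28, -1.14, -1.97 and -0.61 on the 4 arrays of 7 weeks (replicates 1 to 4). The first array lay above 0, at percentile 80.5 of the tested probes on that array. The other 3 lay below 0, with the third farthest out. The fitted difference was -0.86 ± 0.24 (SE, n = 4 arrays; 95% interval -1.34 to -0.37), a 1.81-fold lower level in HG (limma adjusted p = 0.0371). The call held only with the first array left out. It was lost without replicate 2 (adjusted p = 0.124), without replicate 3 (a difference of -0.48, adjusted p = 0.526) and without replicate 4 (adjusted p = 0.0628).

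The second TAT probe had a value on only 10 of the 38 arrays and on none at 5 or 7 weeks. It was not fitted, so its values are turned but have no dye effect taken off. At 1 week its 3 values ran from -0.12 to 0.19, and at 3 weeks its 4 values ran from -0.33 to 0.22. It measured 0.17 on the single array at 9 weeks, and -0.21 and 0.01 on 2 arrays at 11 weeks. It therefore gives no second reading of TAT at the age where the first probe was called.

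HGD was read by 2 separate cDNA probes, called A and B here. Probe A measured -0.37, -1.63, -0.71 and -0.51 on the arrays of 7 weeks, and probe B measured -0.12, -1.86, -0.77 and -0.51. Both were below 0 on 4 of 4 arrays, and replicate 2 was the lowest for both. The fitted difference was -0.80 ± 0.19 (SE, n = 4) for probe A and -0.82 ± 0.22 for probe B (limma adjusted p = 0.00841 and 0.0300), a 1.75- and 1.76-fold lower level in HG. Of all probes with values on all 4 arrays of this age, 3.13% were below 0 on every one. Without replicate 2 the differences were -0.52 (adjusted p = 0.135) and -0.46 (adjusted p = 0.274), and without replicate 3 probe B also lost its call (adjusted p = 0.0966).

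Both HGD probes are on the same arrays and read the same RNA, so they are not independent replicates. Their values had a Pearson r of 0.898 over 35 arrays, with a median absolute difference of 0.17 and a largest of 0.672. At 5 to 11 weeks they had the same sign on 14 of 16 arrays.

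FBP1, of gluconeogenesis, measured -0.11, -1.64, -0.43 and -0.35 at 7 weeks, below 0 on 4 of 4 arrays and lowest on replicate 2. The fitted difference was -0.63 ± 0.17 (SE, n = 4), a 1.55-fold lower level in HG (limma adjusted p = 0.0272). Without replicate 2 the difference was -0.28 (adjusted p = 0.325), and without replicate 3 the adjusted p was 0.0508.

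PCK1, the cytosolic carboxykinase, measured -0.70, 0.70, -0.17 and 0.12 at 7 weeks, with 2 arrays on each side of 0. Its fitted difference was -0.01 ± 0.18 (SE, n = 4; 95% interval -0.37 to 0.35; limma adjusted p = 0.988). The interval rests on a spread pooled over the ages, 0.37 for PCK1, while its 4 arrays at 7 weeks had an SD of 0.58. That SD still holds a split by dye, described below, which the balanced dyes take out of the fitted difference. The SD therefore does not tell whether the interval is too narrow for this age. The interval leaves out differences as large as those fitted for TAT, HGD and FBP1 only on the pooled spread. It is too wide to show equal levels in the lines. The deposited PCK1 ratio itself, before turning, was below 1 on 4 of 4 arrays at 5 weeks (0.610 to 0.743) and on 4 of 4 at 7 weeks (0.568 to 0.845), and above 1 on 4 of 4 at 11 weeks (1.105 to 1.505). Since each line carried each dye on an equal number of those arrays, the turned values split by dye at those ages.

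GPT2 at 7 weeks measured 1.38, 0.10, -0.96 and -0.03, the widest range of the 6 probes at this age. Its difference was 0.12 ± 0.24 (SE, n = 4; limma adjusted p = 0.952).

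**Figure D1:**
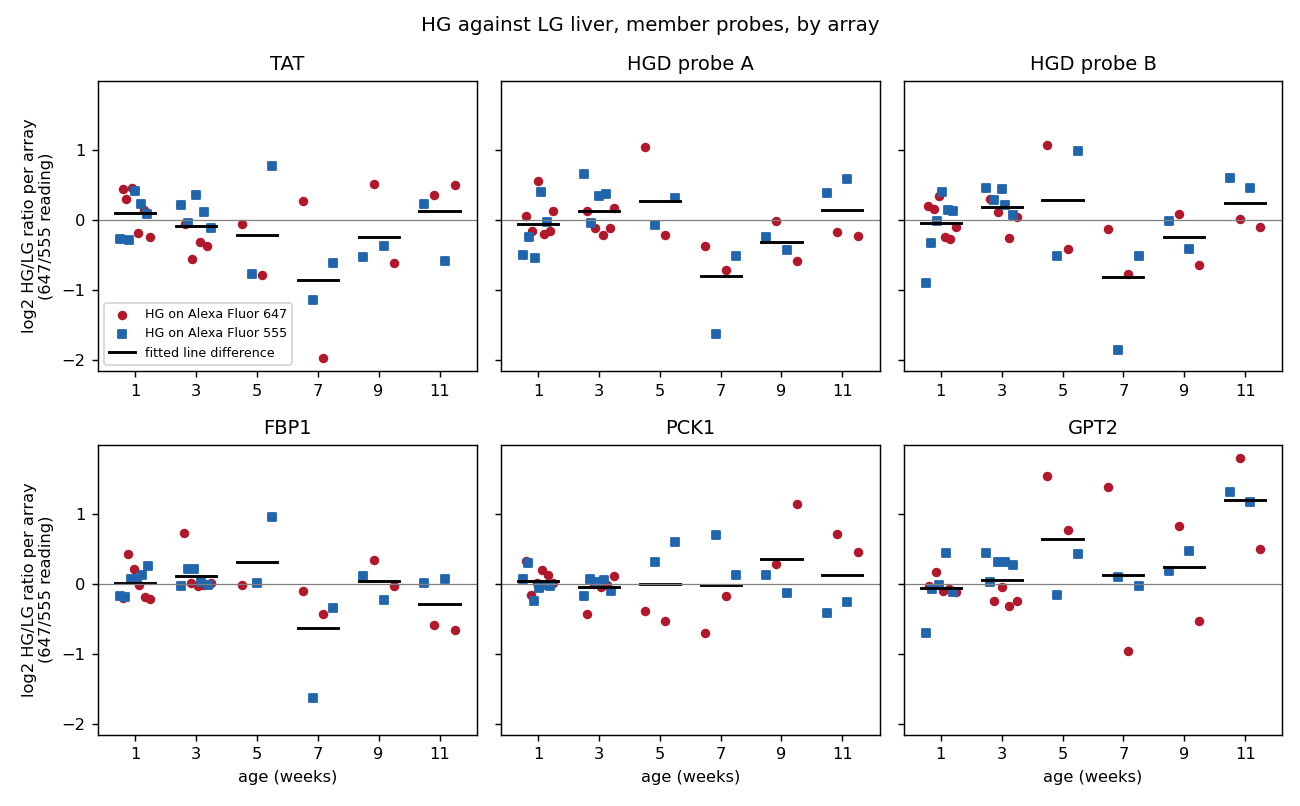
Log2 HG over LG ratio (y axis, likely reading, dye effect taken off) of the 6 tested member probes on each array by age in weeks (x axis). Red circles are arrays with HG on Alexa Fluor 647, blue squares arrays with HG on Alexa Fluor 555, and the bar is the fitted difference; at 7 weeks all 4 values of both HGD probes and FBP1 lie below 0 with replicate 2 lowest, and at 11 weeks all 4 values of GPT2 lie above 0.

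The 7-week values depend on how the spread and the scale of the arrays are treated, beyond the single arrays named above. Replicate 2 had the widest log ratios of the 4 arrays over all probes, with a median absolute deviation of 0.487, against 0.335 for the narrowest. On that array HGD probe B stood at percentile 0.955 of all tested probes, HGD probe A at 1.47, FBP1 at 1.44 and TAT at 4.06. In the same order they stood at 37.4, 15.3, 39.1 and 80.5 on replicate 1. On replicate 3 they stood at 3.94, 5.11, 13.7 and 0.218, and on replicate 4 at 9.06, 9.03, 17.9 and 5.88. With each array scaled to the same median absolute deviation, the 4 differences were -0.44, -0.41, -0.41 and -0.32 for TAT, HGD A, HGD B and FBP1, and 0 of them passed (limma, unadjusted p = 0.0157 to 0.0423, lowest adjusted p = 0.908), with 11 probes called in all. With the arrays of 7 weeks fitted alone, 0 members and 25 probes passed, and the 4 members had unadjusted p-values of 0.00657 to 0.0300 (limma, fitted over all probes). At 7 weeks TAT, HGD A, HGD B and FBP1 had SDs between arrays of 0.943, 0.568, 0.745 and 0.685. Their spreads pooled over the ages were 0.505, 0.389, 0.463 and 0.348. Their errors and intervals in the main fit may therefore be too narrow for this age.

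At 11 weeks the only member called was GPT2, which was higher in HG on the likely reading. It measured 1.31, 1.80, 1.17 and 0.49 on the arrays of 11 weeks, all above 0. Replicate 2 was the highest and replicate 4 the lowest. The fitted difference was 1.19 ± 0.24 (SE, n = 4; 95% interval 0.70 to 1.69), a 2.29-fold higher level in HG (limma adjusted p = 0.0127). It was the 6th highest of the 6432 probes at this age, at which 0.187% of probes were called positive and 0.389% in either direction. On 5.54% of the probes with values on all 4 arrays, every array was above 0.

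With an array of 11 weeks left out, the GPT2 difference stayed between 0.98 and 1.44, and the call held without replicate 4 and was lost without replicate 1, 2 or 3 (adjusted p = 0.0800, 0.233 and 0.0637). Fitted on the arrays of 11 weeks alone, its unadjusted p was 0.00104 and its adjusted p 0.146, with 5 probes called in all.

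The other 5 probes did not pass at 11 weeks (adjusted p = 1.00 for each). TAT measured 0.23, 0.35, -0.59 and 0.51. HGD probe A measured 0.38, -0.18, 0.58 and -0.23. Both genes were on both sides of 0, as was HGD probe B, whose fitted difference of 0.25 was the highest of the 3 probes of the tyrosine route. FBP1 measured 0.01, -0.59, 0.07 and -0.66, with a difference of -0.29 ± 0.17, and PCK1 measured -0.42, 0.71, -0.26 and 0.45, with a difference of 0.12 ± 0.18.

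At 1 and 3 weeks no member passed the test. The differences lay between -0.06 (GPT2) and 0.10 (TAT) at 1 week and between -0.08 (TAT) and 0.18 (HGD probe B) at 3 weeks. The lowest unadjusted p among the members was 0.500 at 1 week and 0.216 at 3 weeks (limma), with SEs of 0.10 to 0.16. Over all probes, 0.0155% (1 probe) were called at 1 week and 0 at 3 weeks, and at an unadjusted p of 0.05 the latter age had 0.42% of probes below it. TAT ranged from -0.29 to 0.45 over 11 arrays at 1 week with a median of 0.15, and from -0.55 to 0.36 over 9 arrays at 3 weeks with a median of -0.06. GPT2 ranged from -0.70 to 0.44 over 10 arrays at 1 week with a median of -0.07, and from -0.31 to 0.44 over 9 arrays at 3 weeks with a median of 0.03. The remaining probes likewise lay on both sides of 0 at both ages.

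Both rounds of hybridisation at these ages gave no member call. From replicates 5 to 12 alone, all 12 member differences at 1 and 3 weeks lay between -0.13 and 0.12. From replicates 1 to 4 alone, GPT2 was -0.36 ± 0.44 (SE) at 1 week, with a wider error, from values on replicates 1 and 4. At 3 weeks this left 2 arrays, and GPT2 had a value on replicate 1 alone, which gave 0.58.

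At 5 weeks no member passed, and 0.777% of all probes did. At an unadjusted p under 0.05, 1 of the 6 probes (GPT2) was counted, against 8.85% of all probes (limma). GPT2 came nearest, with 1.54, -0.16, 0.77 and 0.42 on the 4 arrays and a difference of 0.64 ± 0.24 (SE; limma unadjusted p = 0.0131, adjusted p = 0.352). Its first array was the highest and its second lay below 0. TAT measured -0.05, -0.77, -0.78 and 0.77. Both HGD probes were near 1 on replicate 1 and below 0 on replicates 2 and 3. On replicate 4 probe A measured 0.31 and probe B 0.98. The fitted HGD differences were 0.27 and 0.28. FBP1 had 3 values, -0.02, 0.01 and 0.95, and its difference of 0.31 became -0.00 without replicate 4, the highest array. PCK1 measured -0.39, 0.31, -0.53 and 0.59, with a difference of -0.01.

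At 9 weeks no member passed either, and 0.84% of all probes did. At an unadjusted p under 0.05, 0 of the 6 probes were counted, against 11.4% of all probes (limma). HGD probe A was below 0 on 4 of 4 arrays (-0.24, -0.01, -0.43 and -0.58), as were 6.85% of the probes with 4 values, and its difference was -0.31 ± 0.19 (SE). HGD probe B was below 0 on 3 of 4, with a difference of -0.24. TAT measured -0.52, 0.52, -0.37 and -0.61, with the second array apart from the other 3 and a difference of -0.24. PCK1 had its largest difference of any age here, 0.35 ± 0.18 (limma unadjusted p = 0.0551, adjusted p = 0.446), with 0.13, 0.28, -0.14 and 1.15, so that replicate 4 stood above the rest. GPT2 measured 0.19, 0.82, 0.47 and -0.53, and FBP1 lay between -0.23 and 0.34.

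**Figure D2:**
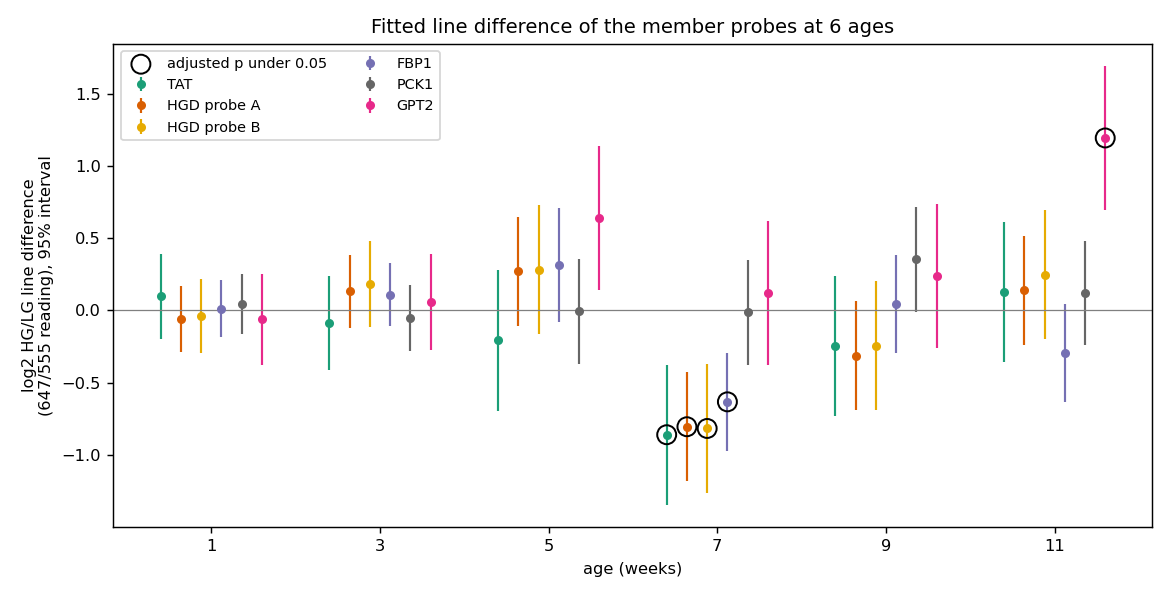
Fitted log2 HG over LG difference (y axis, likely reading) of the 6 member probes at each age in weeks (x axis), with 95% intervals. Circled points passed the limma test at an adjusted p of 0.05, which are TAT, both HGD probes and FBP1 at 7 weeks (-0.63 to -0.86) and GPT2 at 11 weeks (1.19).

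Ordered by the fitted difference, HGD and TAT were lowest at 7 weeks and next lowest at 9 weeks. TAT then followed the order 5, 3, 1 and 11 weeks, and both HGD probes the order 1, 3, 11 and 5 weeks. FBP1 was lowest at 7 weeks, then 11, 1, 9, 3 and 5 weeks. GPT2 ran from 1 week, the lowest, through 3, 7, 9 and 5 weeks to 11 weeks, the highest. PCK1 ran through 3, 7, 5, 1, 11 and 9 weeks over a range no wider than -0.05 to 0.35. No neighbours in any of these orders passed a test of their difference (lowest limma adjusted p = 0.679).

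All 15 pairs of ages were then tested for each probe, 90 tests, with p-values adjusted over all probes within each pair. Of these, 3 passed, all for 7 weeks against 3 weeks, where 1.4% of all probes passed. The difference at 7 weeks minus that at 3 weeks was -0.94 ± 0.22 (SE) for HGD probe A, -1.0 ± 0.26 for HGD probe B and -0.74 ± 0.20 for FBP1 (limma adjusted p = 0.0193, 0.0448 and 0.0485). Against 5 weeks, HGD probe A differed by -1.07 (adjusted p = 0.0563). For GPT2 the pair with the lowest adjusted p was 11 weeks minus 1 week, 1.25 (adjusted p = 0.0781). For TAT it was 7 weeks minus 1 week, -0.96 (adjusted p = 0.0937). For PCK1 no pair came under an adjusted p of 0.617.

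Tests over all ages gave a call for GPT2 alone. Its mean difference over the 6 ages was 0.36 ± 0.09 (SE; 35 arrays with a value; 95% interval 0.18 to 0.55), 1.29-fold higher in HG (limma adjusted p = 0.0115), where 1.31% of probes were called positive and 4.31% in either direction. The call held with any of the 38 arrays left out, with differences of 0.29 to 0.43. It did not hold with the replicate number as a random block (adjusted p = 0.0792). TAT had a mean of -0.20 (limma unadjusted p = 0.0320, adjusted p = 0.268), where 14.8% of all probes had an unadjusted p under 0.05. In the mean of 5 to 11 weeks minus the mean of 1 and 3 weeks, 0 members passed, against 1.15% of all probes, with GPT2, the only 1 of the 6 with an unadjusted p under 0.05 (8.58% of all probes), at 0.55 ± 0.17 (limma unadjusted p = 0.00228, adjusted p = 0.129). The test of unequal differences over the 6 ages called 0 members and 1.54% of all probes (limma). The members' unadjusted p-values ran from 0.00196 (HGD probe A) through 0.0390 (TAT) to 0.543 (PCK1). The share of all probes at such unadjusted values was not worked out for this test.

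**Figure D3:**
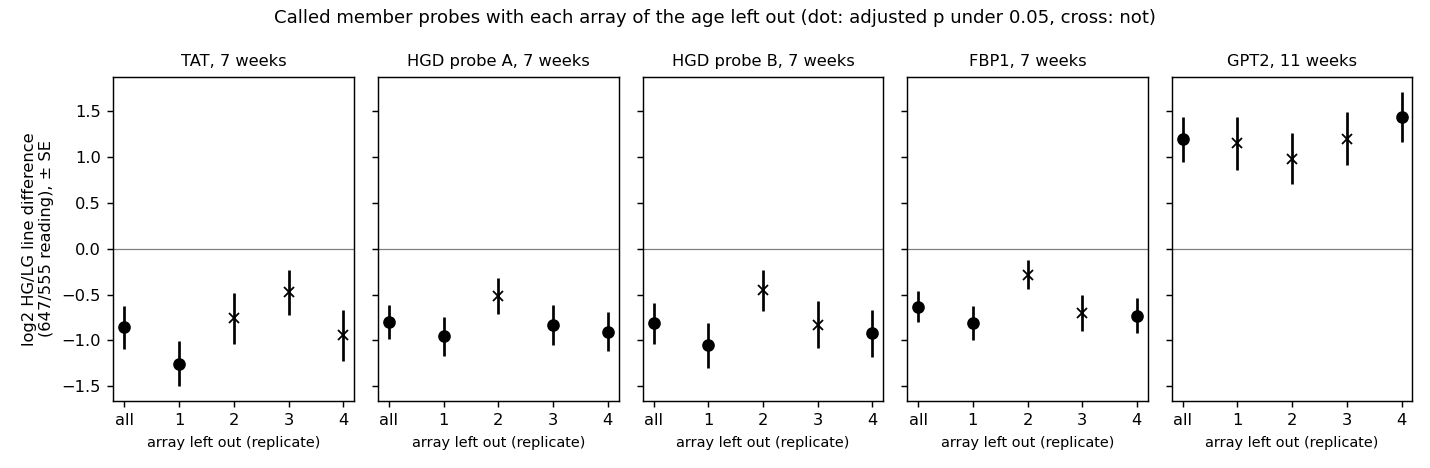
Fitted log2 HG over LG difference ± SE (y axis, likely reading) of the 5 called member probes with all arrays and with each array of that age left out in turn (x axis, replicate left out). Dots passed an adjusted p of 0.05 and crosses did not; without replicate 2 at 7 weeks, all 4 probes of that age lie nearer to 0 and none passes.

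Across arrays, the members' values were set against each other without a test. The Pearson r was 0.717 between HGD probe B and FBP1 (36 arrays), 0.606 between HGD probe A and FBP1 (35 arrays), 0.657 between TAT and HGD probe B (35 arrays), 0.549 between TAT and HGD probe A (34 arrays) and 0.450 between TAT and FBP1 (35 arrays). GPT2 had an r of 0.467 with HGD probe B (34 arrays), 0.445 with TAT (34 arrays), 0.405 with HGD probe A (33 arrays) and 0.01 with FBP1 (34 arrays). PCK1 had an r of 0.03 with TAT (36 arrays) and -0.352 with HGD probe A (36 arrays). These points share the RNA, the dyes and the scale of each array, and the arrays of an age share its mean difference, so the values are a description.

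The 3 genes with the highest r to each member over at least 30 arrays were looked up in the same way. For TAT they were ATP5F1AZ (0.823), SULT1C3 (0.787) and AK4 (0.769). For HGD, both probes had PTPN1, a tyrosine phosphatase (0.774 with probe A and 0.841 with probe B), and GAMT, the enzyme that completes creatine synthesis (0.769 and 0.837), followed by BHMT2 for probe A (0.722) and PTMS for probe B (0.807). GAMT and SULT1C3 also passed the test at 7 weeks, at -0.80 and -0.99 (limma adjusted p = 0.0359 and 0.0356), as did 2.91% of all probes. The genes were picked for values like a called member's on arrays that include those of 7 weeks. Their calls at that age are therefore partly built in and are no separate support.

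For FBP1 the nearest were SSTR2 (0.852), ADH6, an alcohol dehydrogenase (0.819), and NUDT5 (0.819). All 3 passed at 7 weeks, with differences of -0.66, -1.51 and -0.86 (limma adjusted p = 0.00136, 0.0030 and 0.00524), as did 2.91% of all probes. They too were picked on values that include the arrays of 7 weeks, so these calls are partly built in. For GPT2 they were FGG, a fibrinogen chain (0.895 over 31 arrays), PSAT1, the aminotransferase of serine synthesis (0.722 over 35 arrays), and PHF13 (0.665). None of these 3 passed at 11 weeks (adjusted p = 0.400 for FGG and 1.00 for the others). For PCK1 they were FAM103A1 (0.960 over 37 arrays), CACNA1H (0.949) and IPO7 (0.941), none of which passed at 7 weeks, with differences of -0.04 to 0.08.

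The wider pathways were read from 5 gene lists, of which 28 genes had 38 tested probes. At 7 weeks 6 of the 38 probes were called negative and 0 positive, where 1.6% of all probes were called negative and 2.91% in either direction. TAT, HGD and FBP1 supplied 4 of those 6, and the 32 probes of the 23 genes other than the members supplied 2. The median of these 32 was -0.05 and 59.4% of them lay below 0, against a median of 0.03 and 39.8% below 0 over all probes tested. At 5 weeks, with 0 of the 32 called, their median was -0.09 and 68.8% lay below 0, against 46.3% of all probes. In the mean over the ages 59.4% did, against 33.3%. At 9 and 11 weeks it was 50% and 40.6%, against 38.4% and 39%, and at 1 and 3 weeks 43.8% and 50%, against 44.7% and 58%.

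In phenylalanine and tyrosine breakdown, 5 of 8 genes were tested with 7 probes. At 7 weeks 3 probes were called negative, all of TAT and HGD, against 1.6% of all probes (2.91% in either direction). HPD, the enzyme between TAT and HGD in the route, had a difference of -0.61 ± 0.33 (SE) at 7 weeks (limma unadjusted p = 0.0724, adjusted p = 0.504). PCBD1 and QDPR, which regenerate the cofactor of phenylalanine hydroxylase, lay between -0.07 and 0.01 and did not pass. Of the 3 enzymes of the tyrosine route with a tested probe, TAT and HGD were called and HPD was not.

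Among aminotransferases, 4 of 12 genes were tested with 6 probes. At 7 weeks 0 passed, against 2.91% of all probes, and 0 had an unadjusted p under 0.05 (limma), against 11.7%. With 6 probes such counts say little. The lowest was a probe of GOT1, an aspartate aminotransferase, at -0.36 (limma adjusted p = 0.792), while its other 2 probes measured 0.05 and -0.09. At 11 weeks GPT2 was the only 1 of the 6 to pass, against 0.389% of all probes. PSAT1 was next at 0.29 ± 0.14 (limma unadjusted p = 0.0472, adjusted p = 1.00), where 4.17% of all probes had an unadjusted p under 0.05.

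In the breakdown of other amino acids, 9 of 39 genes were tested with 12 probes, and 1 probe was called negative at 7 weeks, as were 1.6% of all probes. It was a probe of HIBCH, an enzyme of valine breakdown, at -0.49 ± 0.14 (limma adjusted p = 0.0356), and a second HIBCH probe measured -0.11. AHCY, which clears S-adenosylhomocysteine from the methionine cycle, measured -0.46 and -0.60 on its 2 probes (adjusted p = 0.116 for the first). KMO, of tryptophan breakdown, measured -0.39 (adjusted p = 0.320). In the mean over the ages, a probe of AHCY (-0.20) and KMO (-0.21) passed (limma adjusted p = 0.0358 and 0.0490), as did 4.31% of all probes.

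In gluconeogenesis, 8 of 16 genes were tested with 10 probes. At 7 weeks FBP1 was the only 1 to pass, where 1.6% of all probes were called negative and 2.91% in either direction. PCK2, the mitochondrial carboxykinase, measured -0.36 ± 0.14 and -0.24 ± 0.25 on its 2 probes (limma adjusted p = 0.232 for the first). The first passed in the mean over the ages at -0.18 (limma adjusted p = 0.0375), where 4.31% of all probes passed. LDHB, which interconverts lactate and pyruvate, had the highest value of the list at 7 weeks, 0.35 (unadjusted p = 0.146). The median of the 8 probes other than FBP1 and PCK1 was -0.05.

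Of 15 regulators, INSR and CEBPB were tested with 3 probes. The insulin receptor gene INSR measured 0.07 at 7 weeks. CEBPB, a transcription factor that acts on acute phase and gluconeogenic genes in mammals, had a probe at -1.13 ± 0.18 at 7 weeks (limma adjusted p = 5.01e-05) and a second probe at 0.39 ± 0.12 (limma adjusted p = 0.0630), so its probes disagreed in sign. The first passed also in the mean over the ages (-0.42, adjusted p = 3.35e-05) and in late minus early (-0.57, adjusted p = 0.00718).

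**Figure D4:**
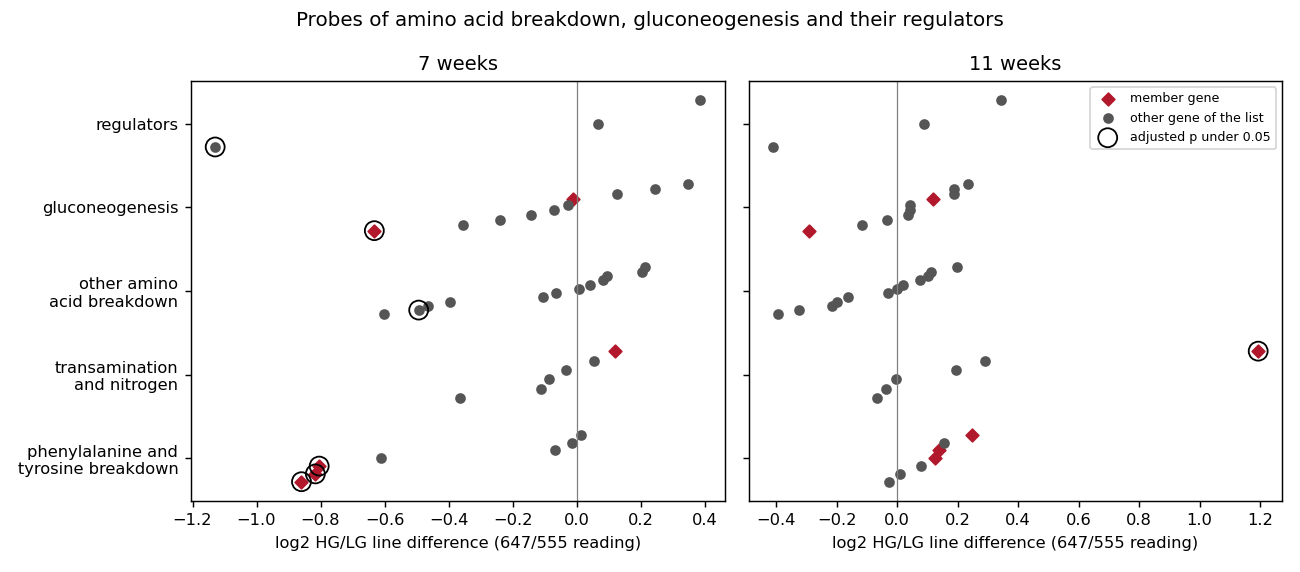
Fitted log2 HG over LG difference (x axis, likely reading) of the 38 probes of the 5 pathway lists (rows, with points spread vertically by rank) at 7 and 11 weeks. Red diamonds are the member genes, grey circles the other genes, and circled points passed an adjusted p of 0.05; at 7 weeks the 6 circled points lie between -0.49 and -1.13, and at 11 weeks GPT2 stands alone at 1.19.

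Markers of liver cell types moved beside the 7-week differences. Of 7 hepatocyte markers, 6 were tested with 10 probes, of which 8 lay below 0, and 4 were called. Over all probes 39.8% lay below 0 and 2.91% were called. TTR was lower in HG (-1.63 and -1.06 on its 2 probes), and TF (0.93) and FGB (1.35) were higher. The median of the 10 probes was -0.03, -1.08, -0.39 and 0.07 on replicates 1 to 4, lowest on replicate 2 like HGD and FBP1. Their part in the member differences was not tested.

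Of 9 erythroid markers, 2 were tested, and the globin gene HBBA was higher in HG at 7 weeks (0.86; limma adjusted p = 1.63e-05) while HBA1 measured 0.33. Their median was 0.01, 0.28, 1.44 and 0.64 on replicates 1 to 4, highest on replicate 3, where TAT was lowest, and its part in the member differences was not tested. The other markers were 5 leukocyte probes, 7 matrix and vessel probes, 1 bile duct probe, 2 pancreas and gut probes and 1 kidney probe. Of these, 0 passed at 7 weeks, against 2.91% of all probes, with list medians of 0.03 to 0.11. An unadjusted p under 0.05 (limma) was reached by 0 of them, against 11.7% of all probes. The file holds ratios only, so the level of a marker in each line is not known. At 11 weeks 1 hepatocyte probe (TF, 0.47) and 0 probes of the other marker lists passed, against 0.389% of all probes. The hepatocyte median was -0.08 where GPT2 was at 1.19.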

How the data were processed

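The authors deposited 1 table of linear dye ratios, 1 for each spot on each array, and by the values its array medians lay between 0.966 and 1.015. The scanner, background correction, normalization, spot filter and numerator dye are not given in the sources used here. Purification of the RNA used spin columns and labelling was indirect, per the labels' protocols.

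Ratios were taken to log2, and averaging spots that shared an accession gave 18547 probes. Testing required a value on 75% or more of the arrays at each age (6432 probes). limma 3.58.1 in R 4.3.3 (lmFit, eBayes) fitted a line effect per age, entered by dye, and a dye effect common to the ages (median residual degrees of freedom 31). All p-values are two-sided, with Benjamini-Hochberg adjustment over the probes of a contrast and a threshold of 0.05. With 4 arrays an exact sign-flip test cannot go below p = 0.125, so none was used. Single array values have the dye effect taken off, except those of the second TAT probe, which was not fitted. The plan named 40 arrays; 38 were used, since replicates 3 and 4 at 3 weeks held nearly the same ratios (r = 0.9999, against at most 0.805 for any other pair).

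Per the series text, replicates beyond the fourth at 1 and 3 weeks were taken as a second round of hybridisation, 8 arrays per age, which used 4 birds per line again. Which arrays share birds was not worked out, so arrays entered the tests. Symbols are those of the platform annotation and may be out of date; 10455 of 10601 annotated spots matched the RefSeq table of GRCg7b by Entrez ID and 0 symbols changed. The files name no genome build, so no coordinates are given, and no sequences are printed. The arrays' number limits the precision.

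All member probes were described. Other list genes were named where a probe passed the threshold at any age or in late minus early, or else up to 2 per list by the p at 7 weeks; AHCY, KMO and PCK2 are also given for the mean over the ages. Members, lists, markers and tests were chosen with earlier results of these data known. The fitting was tested on simulated data with independent arrays and the same spread per probe at every age. It therefore does not cover the wider spread at 7 weeks, arrays of unlike scale or birds used on several arrays. Alternatives changed the filter, array scale, array weights, dye terms, spread, spots, rounds, block, turning and arrays used; the set of 40 arrays was an alternative chosen after seeing the data.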

Additional observations from a re-analysis of the deposited data

Results flagged for a closer look

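Among 30 groups of 4 to 10 arrays, 1 for each member probe and age of that size, 3 had an array far from the rest, and chance alone marks about 1 in 20 such groups. GPT2 at 1 week was -0.70 on replicate 1, a gap to the next array of 0.51 of the whole range. PCK1 at 3 weeks was -0.44 on replicate 2 (0.483 of the range), and FBP1 at 3 weeks was 0.73 on replicate 2 (0.674 of the range). All 3 arrays belong to replicates 1 to 4, and the member was not called at that age.

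The difference between the lines itself differed between 7 and 3 weeks for 3 member probes, by limma's test of the age difference. Relative to 3 weeks, HGD probe A stood at -0.94 (adjusted p = 0.0193), HGD probe B at -1.0 (adjusted p = 0.0448) and FBP1 at -0.74 (adjusted p = 0.0485) at 7 weeks. They were 3 of 90 member tests over 15 pairs of ages, and replicate 2 at 7 weeks was the lowest array for all 3.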

How the results depend on the processing

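With 4 arrays per age from 5 weeks on, single arrays decide most member calls. With an array left out in turn, the member probes called at 7 weeks ranged from 0 to 4. There were 0 without replicate 2 (236 of all 6432 probes called) and 1 without replicate 3 (133 called). At 11 weeks the range was 0 to 1, with 0 without replicate 1, 2 or 3 (19, 14 and 18 called). For the mean over the ages it was 1 to 2. The 2, with TAT, came without replicate 4 at 5 weeks or replicate 1 at 7 weeks (633 and 518 called). For late minus early it was 0 to 1, with 1 (GPT2) without replicate 3 at 7 weeks (58 called). For unequal differences it was 0 to 1, with 1 without replicate 1 at 7 weeks (119 called). At 1, 3, 5 and 9 weeks the member count stayed at 0. In the main fit 187 probes were called at 7 weeks, 25 at 11 weeks and 277 for the mean. It called 74 for late minus early and 99 for unequal differences. The filter for a value on every array left PCK1 as the only member among 4139 probes, so its counts of 0 at 7 weeks, 0 at 11 weeks and 0 for the mean say nothing of the called probes. With arrays scaled to the same median absolute deviation 0 members passed at 7 weeks (11 probes called in all). Fitted per age, 0 passed at 7 weeks and 0 at 11 weeks (25 and 5 probes called). With array weights 0 passed at 7 weeks (8 probes called in all). Array weights gave 1 (GPT2, 0.66, limma adjusted p = 0.0147) for late minus early (117 called) and 1 for unequal differences (296 called). With a dye effect per age and round 2 passed for unequal differences (267 probes called). With replicates 1 to 4 alone at 1 and 3 weeks 0 passed at 7 weeks, 0 at 11 weeks and 0 for the mean. That fit called only 53 and 3 of 6432 probes at these ages and 27 of 6384 for the mean.

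If the deposited ratios were already turned, of the 6 members 2 would pass at 5 weeks, 1 at 7 weeks and 1 at 11 weeks. For the mean 2 would pass and for unequal differences 1. Of all 6432 probes, 3088, 2272, 1034, 3020 and 3319 would pass in that order. The member called at 7 weeks would be PCK1, at -0.54 (limma adjusted p = 0.000607). PCK1 would also be the one called at 11 weeks, at 0.34 (adjusted p = 0.0438). GPT2 at 11 weeks would have an adjusted p of 0.706. The signs would reverse for TAT (0.13), HGD probe A (0.25), HGD probe B (0.43) and FBP1 (0.41) at 7 weeks, none of which would pass (lowest adjusted p = 0.0843). The sign would also reverse for PCK1 in the mean (-0.13). That reading would call 1250 probes at 1 week and 626 at 3 weeks. The series text speaks of few genes at these ages, at a threshold that was not matched here. On that reading a dye effect shared by the arrays would count as a line difference, so these counts do not settle the turning. Without a dye effect, or with replicates 5 to 12 alone, TAT at 7 weeks had a limma adjusted p of 0.0509 or 0.0653. This left 3 member calls at 7 weeks in place of 4, with 153 or 173 probes called in all. A filter of 50% of arrays, single spots and all 40 arrays moved no count of member calls. The cause of these changes was not tested.

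Same replicate numbers at different ages are different birds. Over 50 pairs of arrays with the same number the median r was 0.177 (-0.355 to 0.569), against -0.09 for different numbers, and 8 of 22 arrays correlated best with their own number. With the number as a replicate block (correlation 0.136), 0 members passed for the mean (GPT2 0.37, limma adjusted p = 0.0792), with 131 probes called in all. No other count of member calls changed. The planned fit without arrays that run against the rest of their age was not run, since it would drop 15 of 38 arrays by the values under test.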
